A study of Homo sapiens with 28 samples.

Results

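Residual tumors from mice that received Palbociclib together with Telaglenastat (spelled Telaglenestat in the sample labels) were compared with tumors from mice that received Palbociclib alone, to describe which transcripts differed once Telaglenastat was added. The comparison covers 9 of the 28 RNA-seq samples of the series, 5 Palbociclib tumors and 4 tumors of the combined treatment, here called Combination, taken by the treatment in their labels. The other tumors, 3 Control and 4 Telaglenastat, entered the same statistical fit. At the end, 3 Palbociclib and 3 Combination cell cultures are compared, in a fit that also held the Control and Telaglenastat cultures. All tumors grew from HCT116, an established human colorectal carcinoma line that here carried luciferase and GFP, after injection under the skin of NOD SCID mice aged 5 weeks, which lack functional B and T lymphocytes. Control mice received vehicle, and all groups were dosed daily by mouth for 23 days before the remaining tumors were frozen. One cell line is a single genetic background, and the labels do not say that each tumor is from a different mouse, so p-values measure the spread between these tumors.

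Palbociclib inhibits CDK4 and CDK6, the kinases that phosphorylate the retinoblastoma protein at the G1 to S transition and so release E2F factors to drive S phase genes. Telaglenastat blocks the conversion of glutamine in mitochondria to glutamate, which feeds the TCA cycle, glutathione and the synthesis of non-essential amino acids. Cells short of amino acids or of glutamate commonly raise ATF4 target genes, and cells blocked at G1 lower the genes of DNA replication.

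Reads counted on genes ranged from 6273834 to 10617936 in the Palbociclib tumors (median 8872622) and from 6741257 to 7218778 in the Combination tumors (median 6955998). Each of 9 markers of colon epithelium was detected in at least 1 of these tumors, and VIL1 had 0 counts in Palbociclib tumors 2, 4 and 5. Their summed level was 3150 to 4690 CPM (counts scaled to the size of the library) in Palbociclib and 2430 to 2650 CPM in Combination tumors. Fibroblast markers summed to 116 to 213 and 107 to 145 CPM with LUM at 0, macrophage and leukocyte markers to 22.7 to 33.5 and 9.20 to 15.8 CPM with CD14 and TYROBP at 0, and endothelial markers to at most 3.00 and 2.08 CPM with CDH5 at 0. Keratinocyte markers summed to 117 to 250 and 102 to 205 CPM with KRT1 at 0, skeletal muscle markers to 0 to 105 and 0 to 17.2 CPM, adipocyte markers to at most 0.283 and 0.416 CPM with ADIPOQ at 0, and 3 globin genes were at 0 throughout. Reads were aligned to the human genome, so mouse host cells contribute only through reads that match human genes. In bulk tumor RNA, fewer cells of a type and less RNA per cell cannot be told apart. The sums were also not corrected for the dependence of counts on GC content described next. The median log2 fold change of Combination over Palbociclib for the 9 epithelium markers was -0.60. It was 0.07 once the dependence on GC content and length was taken out.

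The libraries of the 2 groups differed in how counts depended on the GC content of a transcript. Measured as a slope on GC content of log2 CPM relative to each gene's mean over the tumors, this dependence was 0.330, 0.0929, 0.310, 0.326 and 0.357 per SD of GC content in the Palbociclib tumors and -0.285, -0.222, -0.177 and -0.166 in the Combination tumors. All Combination tumors lay below all Palbociclib tumors, with a difference in means of -0.495 (exact permutation test, two-sided p = 0.0159, with no smaller p possible for 5 against 4 tumors, and adjusted p = 0.0423 over 4 library measures). The share of counts on the 13 mitochondrially encoded proteins was 7.88, 11.4, 6.73, 6.79 and 7.89% in Palbociclib and 12.4, 11.5, 11.4 and 10.9% in Combination tumors. These shares overlapped only through Palbociclib tumor 2 and differed by 3.40 percentage points (exact permutation test, two-sided p = 0.0317, adjusted p = 0.0423), a call lost when any tumor but Palbociclib tumor 2 or Combination tumor 4 was left out. The slope on transcript length differed by -0.0215 (exact permutation test, two-sided p = 0.111), and the share held by the 100 most abundant genes by 3.19 percentage points (exact permutation test, two-sided p = 0.0317).

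**Figure D1:**
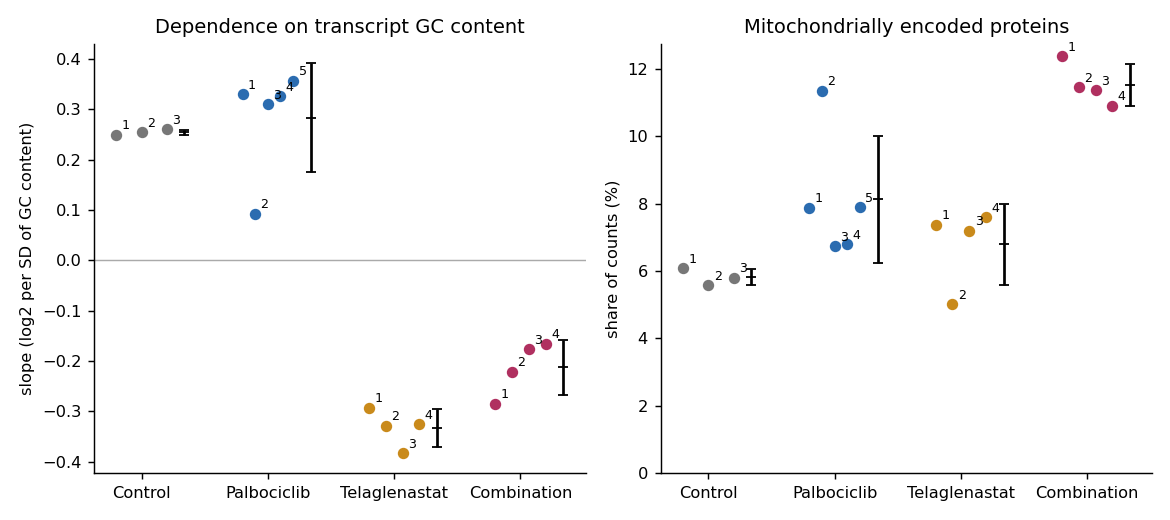
Slope of log2 CPM on transcript GC content (left, log2 per SD of GC content) and percent of counts on the 13 mitochondrially encoded proteins (right) for each of the 16 tumors, by group, with tumor numbers beside the points and bars for the mean ± SD. Palbociclib tumor 2 has a slope of 0.0929 and a share of 11.4%, apart from the other 4 Palbociclib tumors, and the 4 Combination slopes are all below 0.

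Palbociclib tumor 2 stood apart from its group. Its log2 expression correlated with the other Palbociclib tumors at r = 0.959 to 0.964 over genes, where those correlated with each other at 0.967 to 0.972, and with the Combination tumors at 0.952 to 0.959, where the other Palbociclib tumors reached 0.920 to 0.938. It was kept, and counts are given with and without it where they rest on it. Without it, the difference in GC slope was -0.543 and that in mitochondrial share 4.20 percentage points (exact permutation test, two-sided p = 0.0286 for each, the smallest that 4 against 4 tumors allow).

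The dependence on GC content reached most genes. In the tenth of tested genes with the lowest GC content (27.8 to 38.5%), the median log2 fold change of Combination over Palbociclib was 0.31, with 53.4% of genes higher and 0.135% lower at an adjusted p under 0.05 (the quasi-likelihood test of edgeR, adjusted by Benjamini-Hochberg, as for every adjusted p of a gene here). In the tenth with the highest GC content (61.0 to 73.9%), the median was -1.34, with 81.6% lower and 0.270% higher. Once a smooth dependence on transcript GC and length had been taken out of every library, the medians of these bins were 0.00 and -0.12. Values from that second fit are called corrected. Both fits are given below because a true difference shared by GC-rich or GC-poor genes and a technical one cannot be told apart in these libraries.

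**Figure D2:**
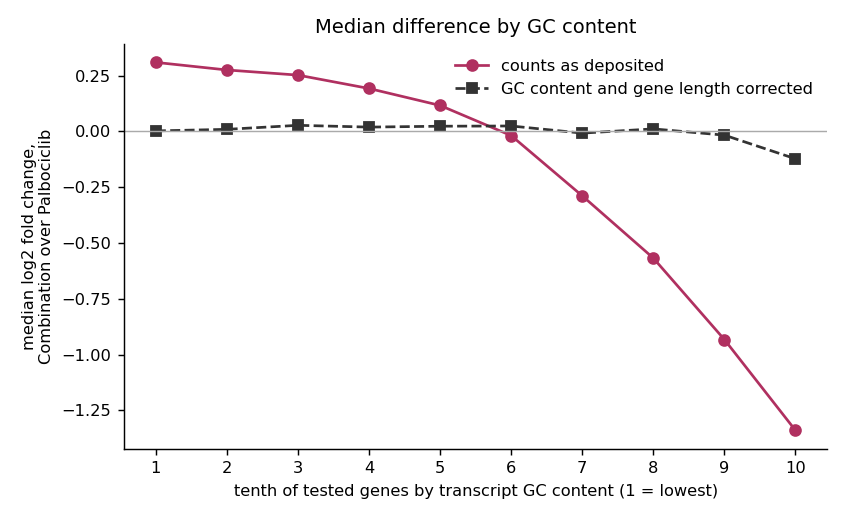
Median log2 fold change of Combination over Palbociclib tumors (vertical axis) in 10 bins of equal size of the tested genes ordered by transcript GC content (horizontal axis), from the counts as deposited (circles) and after correction for GC content and gene length (squares). The medians of the deposited counts run from 0.31 to -1.34, and the corrected ones stay between -0.12 and 0.03.

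Of 14848 genes tested, 4076 were lower (27.5%) and 2988 higher (20.1%) in the Combination tumors than in the Palbociclib tumors. Changes of at least 2-fold were mostly falls, 1986 genes against 80. The corrected fit called 1216 genes lower (8.19%) and 1083 higher (7.29%). A gene was followed further where both fits called it in the same direction, which held for 1066 genes lower (7.18%) and 369 higher (2.49%), of which 178 and 31 changed at least 2-fold in each fit. Another 239 genes were called in opposite directions by the 2 fits. Of the genes that passed both fits in the same direction, 681 lower (4.59%) and 154 higher (1.04%) did so whichever of the 9 tumors was left out, and leaving out Palbociclib tumor 2 gave 1140 lower (7.71%) and 435 higher (2.94%) of 14778 tested. In 22.1% of genes, every Combination tumor was below every Palbociclib tumor, and in 11.9% every one was above. Over all genes tested, the median log2 fold change was 0.016, and 0.008 corrected, which is the level against which the gene lists are read.

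Genes of glutamine and glutamate use moved in both directions. For the genes below, ± is the SD over 5 Palbociclib and 4 Combination tumors, and a pair of values such as -1.15 and -0.31 corrected gives the log2 fold changes from the deposited counts and from the corrected fit of a gene that passed both. GLUL, glutamine synthetase, which makes glutamine from glutamate, fell slightly. It read 151, 163, 141, 159 and 153 CPM in the Palbociclib tumors and 143, 137, 130.1 and 136 CPM in the Combination tumors, groups that overlapped at their edges (log2 fold change -0.17, SE 0.07, adjusted p = 0.0448, corrected -0.31, SE 0.06, adjusted p = 0.00074), and its uncorrected call was lost when any of 7 tumors was left out, with adjusted p up to 0.11. GLUD1, glutamate dehydrogenase, which makes alpha-ketoglutarate, stood at 189.9 to 232 CPM in the Palbociclib tumors and 236 to 298 CPM in the Combination tumors, without overlap (log2 fold change 0.33, SE 0.07, adjusted p = 0.000828), and missed the threshold after correction (adjusted p = 0.0529). CAD, which starts pyrimidine synthesis with the amide of glutamine, fell from 92.9 ± 14.6 to 41.8 ± 5.03 CPM (log2 fold change -1.15, adjusted p = 3.41e-07, and corrected -0.31, adjusted p = 0.00836).

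The transaminases that move nitrogen from glutamate were not called in the deposited counts. GOT1 was at 68.4 to 94.7 CPM in the Palbociclib tumors and 69.2 to 84.4 CPM in the Combination tumors, and GPT2, mitochondrial alanine transaminase, at 26.1 to 35.98 CPM in the Palbociclib tumors and 23.2 to 30.8 CPM in the Combination tumors. GOT1 had a value of -0.10 on the log2 scale (adjusted p = 0.376) and a corrected one of 0.15 (adjusted p = 0.33), and GPT2 -0.18 (adjusted p = 0.252) and 0.38 (adjusted p = 0.0233), so the sign of both turned with the correction. The corrected call of GPT2 was lost without Palbociclib tumor 3 or 4 or Combination tumor 4 (adjusted p up to 0.0951). Of 25 glutamine and glutamate enzymes tested, 9 were lower and 9 higher (36% each, beside 27.5% and 20.1% of all genes). The numbers in both fits were 3 and 2 (12% and 8%, beside 7.18% and 2.49% of all genes).

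Amino acid carriers gave few calls that held in both fits. SLC1A5, the main glutamine importer, read 96.5, 68.1, 93.96, 82.2 and 85.003 CPM in the Palbociclib tumors and 37.3, 37.6, 39.2 and 38.5 CPM in the Combination tumors. The groups were far apart (log2 fold change -1.16, SE 0.10, adjusted p = 5.07e-08), but the corrected difference was -0.12 (adjusted p = 0.449). SLC7A11, the cystine importer that exports glutamate, was at 31.2 to 41.7 CPM in the Palbociclib tumors and 35.1 to 48.8 CPM in the Combination tumors, overlapping ranges and a difference of 0.13 on the log2 scale (adjusted p = 0.443) and -0.15 corrected (adjusted p = 0.47). SLC43A2, a carrier of large neutral amino acids, fell (log2 fold change -1.99, adjusted p = 2.31e-07, and corrected -1.09, adjusted p = 0.000347) and was the 1 carrier of 22 that fell in both fits (4.55%, beside 7.18% of all genes), with 0 higher. It overlaps another gene on its strand.

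The transcript of the first enzyme of serine synthesis was lower. PHGDH, which draws 3-phosphoglycerate out of glycolysis (ENSG00000092621.11, chromosome 1, 119648411 to 119744226 on GRCh38), was at 38.2, 18.3, 31.6, 30.4 and 35.3 CPM in the Palbociclib tumors and 13.2, 8.06, 9.37 and 12.5 CPM in the Combination tumors. The highest Combination tumor stayed below the lowest Palbociclib tumor, which was tumor 2 (log2 fold change -1.52, SE 0.20, adjusted p = 4.74e-06, corrected -1.29, SE 0.19, adjusted p = 8.75e-05). Among 25 serine and one-carbon enzymes, 7 were lower and 7 higher in the deposited counts (28% each, beside 27.5% and 20.1% of all genes), with a median log2 fold change of 0.07. Of these enzymes, 4 were lower (16%) and 1 higher (4%) in both fits. Among 31 genes of the ATF4 stress response, 3 (9.68%) and 1 (3.23%) were, beside 7.18% lower and 2.49% higher of all genes. The shares of the ATF4 list were close to those of all genes. ASNS, asparagine synthetase, an ATF4 target, was at 55.6 to 78.9 CPM in the Palbociclib tumors and 63.9 to 90.4 CPM in the Combination tumors, ranges that overlapped (log2 fold change 0.30, SE 0.10, adjusted p = 0.0205), with a corrected value of 0.18 (adjusted p = 0.27). It shares its strand with an overlapping gene, and its uncorrected call was lost without Palbociclib tumor 3 or 5 or Combination tumor 1 (adjusted p up to 0.0882).

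Aminoacyl-tRNA synthetases, which load amino acids on tRNA, split. FARSA, a subunit for phenylalanine, fell from 44.3 ± 9.90 to 12.99 ± 3.39 CPM (-1.77 and -0.78 corrected), and QARS, for glutamine, from 210.01 ± 8.49 to 124 ± 9.69 CPM (-0.77 and -0.27 corrected). QARS overlaps a microRNA gene on its strand. NARS, for asparagine, rose from 231 ± 12.8 to 301 ± 6.48 CPM (0.38 and 0.18 corrected). In both fits 3 of 20 were lower (15%) and 1 was higher (5%), beside 7.18% lower and 2.49% higher of all genes.

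Glycolytic transcripts were mostly lower. ALDOA, fructose-bisphosphate aldolase A (ENSG00000149925.17, chromosome 16, 30064164 to 30070457), read 1187, 567, 1307, 1363 and 1238 CPM in the Palbociclib tumors and 269.9, 334, 312 and 314 CPM in the Combination tumors. Palbociclib tumor 2 was far below its group and still above every Combination tumor. The fall passed both fits (log2 fold change -1.88, SE 0.17, adjusted p = 7.67e-08, corrected -1.46, SE 0.15, adjusted p = 1.26e-06), and the gene overlaps another on its strand. PFKL, the liver-type subunit of phosphofructokinase, which commits glucose carbon to glycolysis, went from 70.5 ± 17.4 to 18.9 ± 1.88 CPM (log2 fold change -1.90, adjusted p = 4.53e-08, and corrected -0.60, adjusted p = 8.04e-05). SLC16A3, the lactate exporter MCT4, went from 110.3 ± 33.5 to 25.6 ± 4.01 CPM (log2 fold change -2.11, adjusted p = 1.17e-07, and corrected -0.90, adjusted p = 6.07e-05) and overlaps other genes on its strand. Of 24 genes of glucose uptake and glycolysis tested, 17 were lower (70.8%, beside 27.5% of all genes) and 4 higher (16.7%, beside 20.1%). Their median log2 fold change was -0.53, -0.15 corrected. In both fits 10 were lower (41.7%, beside 7.18% of all genes) and 1 was higher (4.17%, beside 2.49%). Whichever tumor was left out, 9 of the lower ones passed (37.5%, beside 4.59% of all genes).

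The pentose phosphate pathway, which makes NADPH and ribose, showed the same direction. TKT, transketolase, which links the pathway back to glycolysis (ENSG00000163931.15, chromosome 3, 53224707 to 53256052), was at 277, 174, 282, 259 and 286 CPM in the Palbociclib tumors and 99.1, 105, 90.5 and 92.98 CPM in the Combination tumors. No Combination tumor reached the lowest Palbociclib tumor (log2 fold change -1.40, SE 0.11, adjusted p = 2.24e-08, corrected -0.73, SE 0.08, adjusted p = 5.13e-06). Of 14 members tested, 7 were lower (50%, beside 27.5% of all genes) and 3 higher (21.4%, beside 20.1%). In both fits 6 were lower (42.9%, beside 7.18% of all genes) and 0 higher (beside 2.49%).

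TCA cycle genes fell in part. OGDH, the subunit of alpha-ketoglutarate dehydrogenase that takes in glutamine carbon, was at 94.5, 69.1, 92.6, 101 and 94.8 CPM in the Palbociclib tumors and 35.7, 40.01, 30.4 and 35.3 CPM in the Combination tumors. The ranges did not touch (log2 fold change -1.36, SE 0.12, adjusted p = 6.08e-08, corrected -0.69, SE 0.10, adjusted p = 4.04e-05). IDH3G, a subunit of NAD-dependent isocitrate dehydrogenase, went from 47.4 ± 12.2 to 11.2 ± 1.44 CPM (-2.08 and -1.02 corrected). Among 28 members, 6 were lower (21.4%, beside 7.18% of all genes) and 0 higher (beside 2.49%) in both fits. The list's median log2 fold change was 0.01, -0.12 corrected.

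Nuclear genes of the respiratory chain moved in both directions, with more falls than rises. NDUFA11 and NDUFA13, accessory subunits of complex I, fell from 19.8 ± 6.80 to 3.31 ± 0.543 CPM (-2.57 and -1.41 corrected) and from 35.3 ± 8.61 to 5.90 ± 2.37 CPM (-2.57 and -1.46 corrected), both with overlapping genes on their strand. CYC1, cytochrome c1 of complex III, fell from 97.7 ± 22.3 to 23.9 ± 1.65 CPM (-2.03 and -0.77 corrected). CYCS, cytochrome c itself, rose from 284 ± 16.1 to 385 ± 14.4 CPM (0.44 and 0.20 corrected), as did ATP5J, a subunit of ATP synthase, from 58.8 ± 7.93 to 78.1 ± 3.09 CPM (0.41 and 0.72 corrected). Of 77 nuclear-encoded subunits, 29 were lower (37.7%) and 17 higher (22.1%) in the deposited counts, beside 27.5% and 20.1% of all genes. In both fits 16 were lower (20.8%) and 3 higher (3.90%), beside 7.18% and 2.49% of all genes. The list's median was -0.07, -0.11 corrected.

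All 13 proteins encoded in mitochondrial DNA, core subunits of complexes I, III, IV and V, were higher in the deposited counts, with a median log2 fold change of 0.54, 0.40 corrected. MT-ND6, the only one of the 13 on the other strand of the genome, was at 1690.3, 2544, 1345, 1589 and 1581 CPM in the Palbociclib tumors and 3163, 2791, 2899.8 and 2644 CPM in the Combination tumors. Every Combination tumor was above every Palbociclib tumor, of which tumor 2 came close to the Combination range (log2 fold change 0.72, SE 0.16, adjusted p = 0.00133, corrected 0.49, SE 0.15, adjusted p = 0.0324). It was the 1 member of the list whose groups did not overlap, and its corrected call was lost when any of 7 tumors was left out. In both fits 6 of 13 were called higher (46.2%, beside 2.49% of all genes). The number was 11 of 13 without Palbociclib tumor 2. It was 0 whichever tumor was left out, so each of the 6 calls was lost in at least 1 of those fits. MTRNR2L1, a nuclear copy of the mitochondrial 16S ribosomal RNA gene whose reads cannot be kept apart from its source, also rose, from 28.9 ± 3.45 to 50.4 ± 9.12 CPM (0.80 and 0.53 corrected), a corrected call lost without any of 3 tumors (adjusted p up to 0.102).

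Ribosomal protein genes of the cytosol were split by gene. RPS9 read 340.1, 223, 364, 342 and 396 CPM in the Palbociclib tumors and 62.1, 80.02, 80.5 and 74.8 CPM in the Combination tumors. Each Combination tumor held far fewer reads than the lowest Palbociclib tumor (log2 fold change -2.16, SE 0.13, adjusted p = 2.79e-09, corrected -1.55, SE 0.09, adjusted p = 1.62e-09). RPS15 fell from 131 ± 29.7 to 32.6 ± 9.29 CPM (-2.004 and -1.03 corrected) and RPL8 from 825 ± 153 to 224 ± 32.5 CPM (-1.88 and -0.69 corrected). RPL21 and RPL26 rose, from 243 ± 26.7 to 335 ± 29.8 CPM (0.46 and 0.40 corrected) and from 1234 ± 183 to 1696 ± 109 CPM (0.46 and 0.29 corrected). These genes have many processed pseudogenes, and RPS9, RPL8, RPL21 and RPL26 overlap other genes on their strand, so how reads were divided among copies is uncertain. Among 78 members, 42 were lower (53.8%) and 19 higher (24.4%), beside 27.5% and 20.1% of all genes. The numbers in both fits were 33 (42.3%) and 7 (8.97%), beside 7.18% and 2.49% of all genes. Whichever tumor was left out, 29 stayed lower (37.2%, beside 4.59% of all genes) and 3 higher (3.85%, beside 1.04%). The list's median was -0.23, -0.15 corrected. Mitochondrial ribosomal proteins had 14 lower (18.2%) and 3 higher of 77 in both fits, with a median of 0.02.

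Protein export and folding in the endoplasmic reticulum (ER) was the pathway list of nuclear-encoded proteins with the highest share of rises in both fits. MANF, a secreted factor and chaperone partner induced by ER stress (ENSG00000145050.15, chromosome 3, 51385047 to 51389397), was at 87.7, 115, 98.4, 80.2 and 82.6 CPM in the Palbociclib tumors and 131, 152, 141 and 131 CPM in the Combination tumors. Every Combination tumor was above every Palbociclib tumor (log2 fold change 0.58, SE 0.11, adjusted p = 0.000151, corrected 0.75, SE 0.10, adjusted p = 3.28e-05). SPCS1, a subunit of the signal peptidase, rose from 78.7 ± 8.998 to 109 ± 6.52 CPM (0.47 and 0.32 corrected). CRELD2, another ER stress gene, went the other way, from 21.1 ± 3.40 to 11.4 ± 0.993 CPM (log2 fold change -0.89, adjusted p = 2.38e-05, and corrected -0.46, adjusted p = 0.0127). In the deposited counts 22 of 34 members were higher (64.7%, beside 20.1% of all genes) and 9 lower (26.5%, beside 27.5%). In both fits 7 were higher (20.6%, beside 2.49% of all genes) and 2 lower (5.88%, beside 7.18%). Whichever tumor was left out, 3 stayed higher (8.82%, beside 1.04% of all genes) and 1 lower. The median of 0.30 became 0.04 after correction.

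The ER stress response element, to which ATF6 with NF-Y binds, is the 5 bases CCAAT, then 9 bases of any kind, then CCACG. It was searched for on both strands in the RefSeq promoters of GRCh38.p14, 250 bases before to 50 after a gene's start. It was present in 27 of 35116 promoters (0.0769%). Of the 31 list members with a promoter, 7 had it, a count of genes, some with several promoters, that is not on the scale of that share. In the whole list, 22 of 34 members were higher and 9 lower in the deposited counts, beside 20.1% and 27.5% of all genes. The corrected fit had 7 higher and 2 lower, beside 7.29% and 8.19% of all genes. Of the 7 members with the element, 4 were higher and 2 lower in the deposited counts, and 1 and 1 in the corrected fit. The latter are HSPA5, the chaperone BiP, and CRELD2, with opposite directions, and their sequences are shown for that reason, as the 160 bases before the start with the element in capitals. HSPA5 lies on the minus strand (chr9:125241344-125241503), where the element starts 66 bases before the start. CRELD2 lies on the plus strand (chr22:49918474-49918633), where the element is on the other strand, so that its capitals read as the reverse complement, from 80 bases before the start.
HSPA5: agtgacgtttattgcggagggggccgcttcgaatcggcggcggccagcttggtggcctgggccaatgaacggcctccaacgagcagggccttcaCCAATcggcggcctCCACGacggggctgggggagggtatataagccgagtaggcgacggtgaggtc
CRELD2: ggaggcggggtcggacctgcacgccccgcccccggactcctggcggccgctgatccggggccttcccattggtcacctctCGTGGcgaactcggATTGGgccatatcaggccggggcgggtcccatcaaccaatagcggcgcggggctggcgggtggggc
HSPA5 was chosen after its values were seen. Its level was 1305, 1389, 1262, 1336 and 1170.5 CPM in the Palbociclib tumors and 1671, 1867, 1688 and 1584 CPM in the Combination tumors, without overlap (log2 fold change 0.40, adjusted p = 0.000728, and corrected 0.28, adjusted p = 0.0223), and its corrected call was lost without Palbociclib tumor 5 (adjusted p = 0.063) or Combination tumor 2 (adjusted p = 0.0905). A match is a description of the letters, not of binding.

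Of the lipid synthesis genes called in both fits, all but 1 cholesterol gene were lower. MVD, mevalonate diphosphate decarboxylase of the cholesterol pathway, fell from 13.8 ± 4.30 to 3.21 ± 0.699 CPM (-2.09 and -0.88 corrected), and FASN, fatty acid synthase, from 168 ± 43.4 to 44.2 ± 4.71 CPM (-1.93 and -0.53 corrected). ETFB, which passes electrons from fatty acid oxidation to the respiratory chain, read 31.4, 22.2, 39.1, 30.4 and 34.5 CPM in the Palbociclib tumors and 7.15, 6.87, 9.23 and 8.48 CPM in the Combination tumors. Its groups did not overlap, and its difference was nearly the same in both fits (log2 fold change -1.99, SE 0.18, adjusted p = 7.14e-08, corrected -2.01, SE 0.18, adjusted p = 3.46e-07). Its transcript GC content was 48.7%, in a bin whose median log2 fold change was -0.02 before and 0.02 after correction. At that GC content the correction had little to remove. ETFB overlaps other genes on its strand. In both fits 4 of 25 cholesterol genes were lower (16%) and 1 higher (4%), 2 (10%) and 0 of 20 genes of fatty acid synthesis, and 2 (8.70%) and 0 of 23 of fatty acid oxidation, beside 7.18% lower and 2.49% higher of all genes.

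Antioxidant genes moved both ways. GSTP1, a glutathione transferase, fell from 165 ± 34.5 to 48.7 ± 2.89 CPM (-1.76 and -0.61 corrected), and GPX4, which reduces lipid peroxides with glutathione, from 109 ± 18.2 to 35.8 ± 4.61 CPM (-1.61 and -0.46 corrected). The 2 chains of ferritin, which stores iron, went in opposite directions. FTL, the light chain, was at 555, 356, 604, 542 and 518 CPM in the Palbociclib tumors and 141, 196, 183 and 169 CPM in the Combination tumors. FTH1, the heavy chain, was at 1587, 1649, 1731, 1922 and 1604 CPM in the Palbociclib tumors and 2193, 2174, 2162 and 1929 CPM in the Combination tumors. Neither chain's groups overlapped, with FTL lower (log2 fold change -1.58, adjusted p = 3.17e-08, and corrected -0.94, adjusted p = 1.92e-06) and FTH1 higher (log2 fold change 0.32, adjusted p = 0.00212, and corrected 0.38, adjusted p = 0.00135). Of 28 genes of glutathione and the NRF2 response, 5 were lower (17.9%) and 3 higher (10.7%) in both fits. Of all genes, 7.18% were lower and 2.49% higher.

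In nucleotide synthesis, APRT, which salvages adenine, fell from 32.9 ± 6.92 to 7.76 ± 2.36 CPM (-2.08 and -0.87 corrected), and TK1, thymidine kinase, an E2F target, from 67.6 ± 18.6 to 20.1 ± 2.25 CPM (-1.75 and -0.57 corrected). Of 23 purine and pyrimidine genes, 5 were lower (21.7%) and 1 higher (4.35%) in both fits, beside 7.18% lower and 2.49% higher of all genes. Of 15 genes of deoxynucleotide supply, 1 was lower and 0 higher, and the 6.67% lower was close to the share of all genes.

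The genes on which Palbociclib acts were read next. CDK4 went from 158 ± 14.5 to 118 ± 11.9 CPM (log2 fold change -0.43, SE 0.08, adjusted p = 0.000322), with a corrected value of -0.09 (adjusted p = 0.452). CDK6 was at 35.5 to 40.9 CPM in the Palbociclib tumors and 42.7 to 53.9 CPM in the Combination tumors, ranges that did not overlap although the test was not passed (log2 fold change 0.34, SE 0.19, adjusted p = 0.144, corrected 0.12, adjusted p = 0.759). The fit shares its estimate of spread over the 4 groups. CDK6 was at 23.9 ± 13.8 CPM in the Control tumors, with SDs of 2.05 in the Palbociclib and 5.15 CPM in the Combination tumors. CCND1, cyclin D1, was at 914 to 1054 CPM in the Palbociclib tumors and 1063 to 1208 CPM in the Combination tumors, differing by 0.15 on the log2 scale (adjusted p = 0.0757) and 0.25 corrected (adjusted p = 0.0118, and 0.056 without Combination tumor 2). RB1 was higher in the deposited counts only (log2 fold change 0.32, adjusted p = 0.00541, and corrected 0.02, adjusted p = 0.891), and CDKN1A, the inhibitor p21, lower in the deposited counts only, with the opposite sign after correction (log2 fold change -0.68, adjusted p = 1.06e-05, and corrected 0.11, adjusted p = 0.429). CDK4, CDK6 and RB1 overlap small RNA genes on their strand.

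Proliferation markers were within the spread of the tumors. MKI67 read 274, 219, 235, 244 and 209.6 CPM in the Palbociclib tumors and 270.5, 215, 176 and 180.2 CPM in the Combination tumors. The groups overlapped, with 2 Combination tumors below all Palbociclib tumors, differing by -0.17 on the log2 scale (adjusted p = 0.215). LMNB1, lamin B1, which senescent cells lose, was at 71.6 to 102 CPM in the Palbociclib tumors and 74.4 to 113 CPM in the Combination tumors (log2 fold change 0.12, adjusted p = 0.419), and MYC at 195 to 231 CPM in the Palbociclib tumors and 169.7 to 224 CPM in the Combination tumors (-0.17, adjusted p = 0.16), and MYC had the opposite sign after correction (0.21, adjusted p = 0.169).

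Single genes of the cell cycle did pass. MYBL2, an E2F target that drives later cell cycle genes, was at 43.7, 16.3, 33.9, 25.2 and 28.7 CPM in the Palbociclib tumors and 8.26, 8.66, 8.95 and 6.84 CPM in the Combination tumors. The groups did not overlap (log2 fold change -1.86, adjusted p = 1.67e-06, and corrected -0.86, adjusted p = 0.00343). MCM5, a subunit of the replicative helicase, fell from 58.2 ± 12.9 to 18.5 ± 2.34 CPM (-1.65 and -0.90 corrected), and RANGAP1, which acts at the mitotic spindle, from 72.002 ± 15.2 to 25.1 ± 3.45 CPM (-1.52 and -0.81 corrected), while SLBP, the histone mRNA binding protein of S phase, rose from 85.3 ± 3.43 to 103 ± 6.24 CPM (0.27 and 0.36 corrected). RANGAP1 overlaps a microRNA gene on its strand. In both fits, 5 of 43 S phase genes were lower (11.6%) and 1 higher, 5 of 54 G2/M genes (9.26%) and 0, and 1 of 29 genes of the CDK4/6-RB pathway (3.45%) and 0. Beside 7.18% of all genes, these shares were between 3.45 and 11.6%.

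Interferon response genes were lower where both fits called them. ISG15, a ubiquitin-like protein induced by interferon (ENSG00000187608.8, chromosome 1, 1001138 to 1014540), read 46.8, 26.8, 55.7, 47.9 and 57.7 CPM in the Palbociclib tumors and 9.05, 5.23, 9.94 and 11.01 CPM in the Combination tumors. The lowest Palbociclib tumor, tumor 2, was above all Combination tumors (log2 fold change -2.41, SE 0.21, adjusted p = 5.95e-08, corrected -1.20, SE 0.17, adjusted p = 4.99e-05). IFI35 fell from 29.9 ± 8.16 to 8.01 ± 0.832 CPM (-1.90 and -1.01 corrected). Of 36 members, 18 were lower (50%, beside 27.5% of all genes) and 6 higher (16.7%, beside 20.1%). In both fits 6 were lower (16.7%, beside 7.18% of all genes) and 0 higher (beside 2.49%). The list's median log2 fold change was -0.36, -0.009 corrected. CD68, a lysosomal protein used as a macrophage marker, fell as well, from 18.1 ± 4.56 to 3.67 ± 2.36 CPM (log2 fold change -2.30, adjusted p = 2.68e-05, and corrected -1.76, adjusted p = 0.00119), and it is part of the summed macrophage and leukocyte markers of 22.7 to 33.5 CPM against 9.20 to 15.8 CPM. Of the 3 markers of that list that were tested, CD68 was the 1 called lower, and 2 were not called. CD68 overlaps another gene on its strand. Whether human or mouse cells gave these reads, and their part in the interferon genes, was not tested.

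For secreted factors of senescent cells, 18 of 33 listed genes were tested, and 3 were lower (16.7%, beside 7.18% of all genes) and 0 higher in both fits. IGFBP2, a binding protein for insulin-like growth factors, fell from 50.1 ± 11.97 to 15.8 ± 3.20 CPM (-1.66 and -0.91 corrected). Of 24 p53 targets, 1 was lower in both fits (4.17%, beside 7.18% of all genes) and 0 higher. The 1 was BAX, which permeabilises mitochondria in apoptosis and fell from 23.99 ± 5.40 to 7.54 ± 0.69 CPM (-1.67 and -0.78 corrected).

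Epithelial genes changed in both directions. ITGB4, the integrin of hemidesmosomes, was at 303, 179, 452, 474 and 377 CPM in the Palbociclib tumors and 92.1, 87.6, 70.4 and 96.995 CPM in the Combination tumors. JUP, plakoglobin of desmosomes, fell from 205 ± 39.1 to 58.5 ± 3.51 CPM (-1.81 and -0.72 corrected), and so did the keratins KRT8, from 1571 ± 278 to 757 ± 39.01 CPM (-1.05 and -0.44 corrected), and KRT19, from 569.6 ± 119 to 188 ± 21.7 CPM (-1.60 and -0.49 corrected). OCLN, occludin of tight junctions, was at 46.8, 54.6, 45.2, 50.4 and 52.8 CPM in the Palbociclib tumors and 72.9, 73.6, 71.9 and 72.2 CPM in the Combination tumors. EPCAM, an epithelial adhesion molecule, rose as OCLN did, from 409.7 ± 33.6 to 526 ± 28.5 CPM (0.36 and 0.26 corrected). ITGB4 fell without overlap (log2 fold change -2.04, adjusted p = 2.49e-07, and corrected -0.74, adjusted p = 0.0019), and OCLN rose without overlap (log2 fold change 0.54, adjusted p = 3.25e-06, and corrected 0.31, adjusted p = 0.00199). Of 26 genes of epithelial adhesion and mesenchymal transition, 5 were lower (19.2%) and 3 higher (11.5%) in both fits. Of all genes, 7.18% were lower and 2.49% higher. KRT8, KRT19 and EPCAM are also among the colon epithelium markers, and EPCAM overlaps small RNA genes on its strand.

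Lysosomal genes, arginine methyltransferases and polyamine genes had members that passed. CTSD, cathepsin D, fell from 101 ± 27.2 to 29.2 ± 2.77 CPM (-1.78 and -0.56 corrected), while MAP1LC3B, the autophagosome protein LC3B, rose from 158 ± 12.4 to 204 ± 9.81 CPM (0.37 and 0.44 corrected). In both fits 8 of 41 lysosome and autophagy genes were lower (19.5%) and 2 higher (4.88%), beside 7.18% lower and 2.49% higher of all genes. PRMT1 and PRMT2, which methylate arginines, were both lower, from 151 ± 34.7 to 55.2 ± 5.12 CPM (-1.45 and -0.76 corrected) and from 65.1 ± 8.29 to 38.04 ± 5.48 CPM (-0.77 and -0.82 corrected), the 2 of 9 methyltransferases (22.2%) that fell in both fits. ASL, argininosuccinate lyase of arginine synthesis, fell from 15.98 ± 5.54 to 3.49 ± 1.18 CPM (-2.18 and -1.26 corrected), and SMOX, spermine oxidase, from 20.3 ± 4.58 to 5.54 ± 0.518 CPM (-1.87 and -0.84 corrected), with 3 lower (20%) and 1 higher (6.67%) of 15 members in both fits. CTSD, PRMT1 and ASL overlap genes on their strand.

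The remaining lists had 0 to 4 members called in each direction in both fits, beside 7.18% lower and 2.49% higher of all genes. MYC targets with ribosome biogenesis had 4 lower (10.8%) and 2 higher (5.41%) of 37, HIF1 targets 2 (8%) and 0 of 25, WNT targets 2 (15.4%) and 0 of 13, and MAPK pathway output 0 and 0 of 19. Abundant long noncoding RNAs had 0 lower and 2 higher (13.3%) of 15.

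Among protein-coding genes called in both fits, at a mean of at least 2 log2 CPM, with groups that did not overlap and no overlapping gene on their strand, the rises with the largest log2 fold change were mostly of genes at low levels. CAPN12, a calpain protease (ENSG00000182472.8, chromosome 19, 38730187 to 38769904), was at 1.79, 5.13, 1.07, 3.03 and 4.26 CPM in the Palbociclib tumors and 26.4, 14.3, 12.9 and 23.8 CPM in the Combination tumors. Every Combination tumor exceeded every Palbociclib tumor (log2 fold change 2.70, SE 0.45, adjusted p = 5.82e-05, corrected 3.85, SE 0.50, adjusted p = 2.03e-05). CAMK2N1, an inhibitor of the kinase CaMKII, rose from 51.4 ± 3.49 to 83.6 ± 7.33 CPM (log2 fold change 0.70, adjusted p = 1.99e-06, and corrected 0.91, adjusted p = 5.74e-07), and its difference held whichever tumor was left out. KRTAP2-3, a keratin-associated protein with close paralogs, rose from 10.6 ± 1.78 to 17.05 ± 3.64 CPM (0.69 and 1.23 corrected), and SPATA5L1 from 8.82 ± 0.963 to 14.3 ± 0.68 CPM (0.70 and 1.16 corrected). The transcription factor RUNX2 rose from 2.92 ± 0.864 to 5.79 ± 1.22 CPM (0.99 and 0.91 corrected), ATG4A, a protease of autophagy, from 15.2 ± 2.18 to 25.4 ± 2.16 CPM (0.74 and 0.49 corrected), and PGBD4, derived from a transposase, from 3.56 ± 0.547 to 6.95 ± 1.63 CPM (0.95 and 0.76 corrected). The corrected call of RUNX2 was lost without any of 4 tumors (adjusted p up to 0.0888), that of ATG4A without any of 4 (adjusted p up to 0.0666) and that of PGBD4 without Combination tumor 4 (adjusted p = 0.0944).

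Under the same conditions, the falls of largest size were CBLC, an E3 ubiquitin ligase of the CBL family (ENSG00000142273.10, chromosome 19, 44777869 to 44800652), and ELOB, elongin B. CBLC read 11.1, 4.34, 11.6, 13.1 and 12.8 CPM in the Palbociclib tumors and 1.27, 1.79, 0.852 and 1.49 CPM in the Combination tumors. Its lowest Palbociclib value, in tumor 2, was well above the highest Combination value (log2 fold change -2.96, SE 0.34, adjusted p = 8.36e-07, corrected -1.68, SE 0.29, adjusted p = 0.000379). ELOB went from 19.9 ± 5.76 to 3.60 ± 0.835 CPM (-2.46 and -1.39 corrected), SF3B5, a small subunit of the splicing factor SF3B, from 28.9 ± 7.01 to 5.62 ± 1.02 CPM (-2.35 and -1.69 corrected), and SLC4A3, an anion exchanger, from 10.6 ± 2.07 to 2.12 ± 0.643 CPM (-2.31 and -1.05 corrected). NAT14, SBNO2, ISOC2 and BAIAP3 fell as well, with log2 fold changes of -2.45, -2.42, -2.30 and -2.27, and of -1.02, -1.01, -1.30 and -0.996 after correction. EMID1 fell from 8.08 ± 1.29 to 1.70 ± 0.706 CPM (-2.25 and -0.89 corrected), with a corrected call lost without any of 8 tumors (adjusted p up to 0.164). Among these 9 genes, transcript GC content ran from 56.6% in SF3B5 to 67.6% in NAT14, all above the middle of the tested genes, at 48.0%.

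To see whether Telaglenastat changed these genes differently with and without Palbociclib, the difference Combination minus Palbociclib was set against Telaglenastat minus Control in 1 model. The interaction was lower in 3 genes (0.0202%) and higher in 7 (0.0471%) of 14848, with 1424 at an unadjusted p under 0.05, and 0 and 7 after correction. In most genes, then, a difference between the 2 settings was not detectable with these tumors, which does not show that they were alike. Collagen and matrix genes, fibroblast markers or products of them, made up part of the 7. SPARC, a secreted matrix protein, read 83.6, 80.3, 60.2, 81.8 and 80.9 CPM in the Palbociclib tumors, 61.3, 73.8, 40.9 and 49.98 CPM in the Combination tumors, 22.8, 21.3, 21.6 and 17.9 CPM in the Telaglenastat tumors and 78.7, 84.1 and 73.5 CPM in the Control tumors. With Palbociclib its level fell by less than without it, and the groups of the Telaglenastat contrast without Palbociclib were far apart (interaction 1.46, SE 0.20, adjusted p = 0.00412, corrected 1.47, adjusted p = 0.00308). COL1A2, a chain of type I collagen, averaged 20.5 ± 3.17 CPM in Control, 7.58 ± 1.47 in Telaglenastat, 18.5 ± 2.07 in Palbociclib and 18.7 ± 2.72 in Combination tumors, so that the fall seen without Palbociclib (-1.44 on the log2 scale) was not seen with it (0.01, adjusted p = 0.964), an interaction of 1.45, SE 0.22, adjusted p = 0.0097. COL1A1, the other chain, averaged 119 ± 15.1 CPM in Control, 25.6 ± 2.32 in Telaglenastat, 118 ± 29.5 in Palbociclib and 61.8 ± 7.95 in Combination tumors (interaction 1.29, SE 0.24, adjusted p = 0.0479), and passed in 3 of 9 fits, each without 1 of the tumors. The summed fibroblast markers of 116 to 213 and 107 to 145 CPM include both collagens, and mouse stroma was not measured apart.

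**Figure D3:**
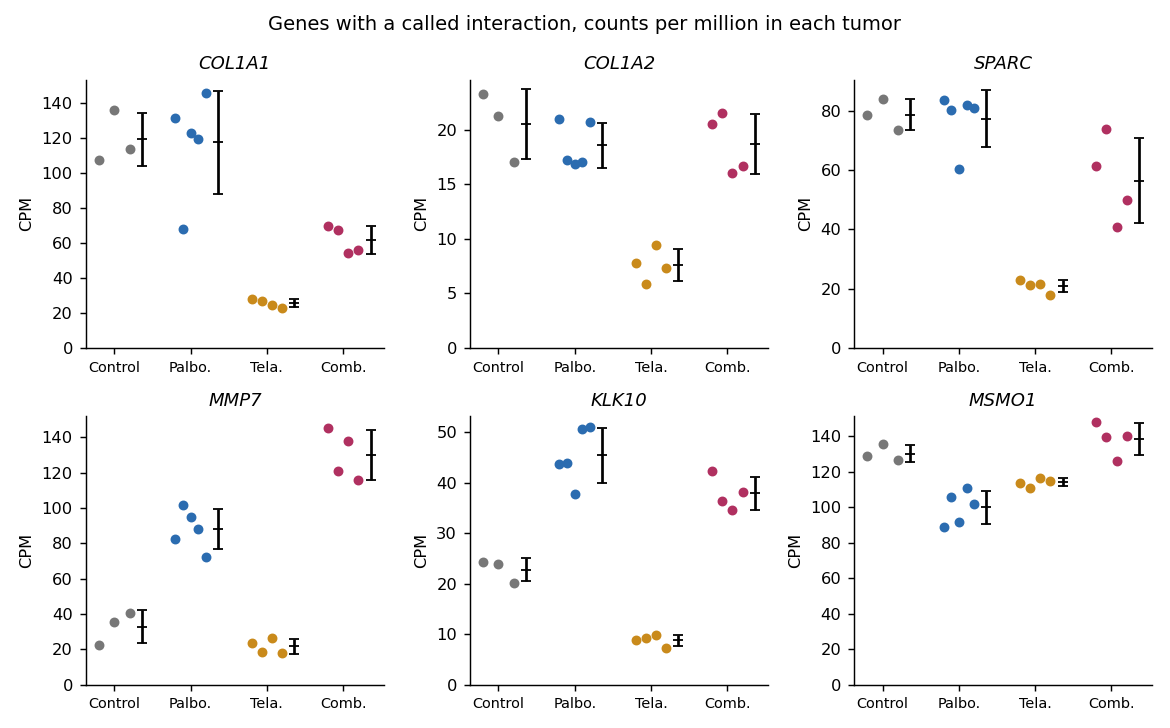
CPM (vertical axes, from 0) of 6 genes with a called interaction in each of the 16 tumors by group, with bars for the mean ± SD. COL1A1, COL1A2, SPARC and KLK10 are far lower in Telaglenastat than in Control tumors and differ less or not at all between Combination and Palbociclib tumors, and MMP7 and MSMO1 are higher in Combination than in Palbociclib tumors and not in Telaglenastat than in Control tumors.

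MSMO1, a sterol oxidase of cholesterol synthesis, averaged 130.3 ± 4.78 CPM in Control, 114 ± 2.29 in Telaglenastat, 99.998 ± 9.32 in Palbociclib and 139 ± 9.23 in Combination tumors, so it rose with Palbociclib and fell slightly without it (interaction 0.66, SE 0.10, adjusted p = 0.0097). MMP7, a matrix metalloproteinase of epithelial cells, averaged 32.9 ± 9.25 CPM in Control, 21.7 ± 4.01 in Telaglenastat, 88.04 ± 11.3 in Palbociclib and 129.9 ± 14.004 in Combination tumors (interaction 1.16, SE 0.22, adjusted p = 0.0483), with its call kept in 2 of 9 fits, and KLK10, a secreted serine protease, 22.8 ± 2.32 CPM in Control, 8.83 ± 1.10 in Telaglenastat, 45.4 ± 5.51 in Palbociclib and 37.9 ± 3.25 in Combination tumors (interaction 1.11, SE 0.17, adjusted p = 0.0097). PALLD, which overlaps 3 genes on its strand, HTR7 and NR2F1 had a lower interaction, of -0.80, -0.66 and -0.62, with calls kept in 3, 3 and 5 of 9 fits and none after correction. The tenth gene, ISY1-RAB43, overlaps 2 genes on its strand, and with 0 to 0.139 CPM in the Telaglenastat tumors its fitted interaction has no interpretable size. SPARC, COL1A2, MSMO1, KLK10 and ISY1-RAB43 kept their call whichever of the 9 Palbociclib and Combination tumors was left out, and no Control or Telaglenastat tumor was left out in turn.

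Cells taken from such tumors and grown without drug were compared in the same way, in a fit of their own. That fit held the cultures of all groups, so its estimate of spread also drew on the Control and Telaglenastat cultures. Between 3 Combination and 3 Palbociclib cultures, edgeR called 0 genes lower (0%) and 0 higher (0%) of 13985, with 277 at an unadjusted p under 0.05, and DESeq2 called 3 lower and 0 higher. After correction 1 gene was lower (0.00715%), TICAM2, an adapter of Toll-like receptor signaling with an overlapping gene on its strand, at 52 to 187 counts in the Palbociclib and 0 counts in all Combination cultures (adjusted p = 0.0371). Of 1180 genes that passed both fits in the tumors without overlap of the groups and at a mean of at least 2 log2 CPM, 1175 were tested in the cultures and 0 were called. The GC slopes of the cultures were -0.107, -0.103 and -0.134 with Palbociclib and -0.0764, -0.128 and -0.0593 with Combination, ranges that overlapped. ALDOA, for example, averaged 145 ± 8.85 CPM in the Palbociclib and 149 ± 7.46 CPM in the Combination cultures, with an SE of 0.39 for its log2 difference. In the tumors that SE was 0.17. The lack of calls thus does not show that the cultures were alike. The difference between tumors and cultures was not tested.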

How the data were processed

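Poly(A) RNA of HCT116 xenografts was sequenced as strand-specific libraries with 60-base single-end reads. Per the labels and the study's methods, base calls were made with CASAVA 1.8 and reads were aligned with STAR to hg38, and the authors deposited raw counts per gene for each library, without normalization. The annotation release and whether counting used strand are not given in the sources used here, so genes that overlap another gene on the same strand have uncertain counts and are marked in the text, and of the 89 genes named 37 have a neighbour on the opposite strand within their span. Human counts of 58278 genes were used. Of these, 57895 IDs matched GENCODE 29 on GRCh38, which gave coordinates, length and GC content of the longest transcript, and genes without GC content held 0.0461% of counts.

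The 16 tumors were fitted as 4 group means with edgeR 4.0.16 in R 4.3.3 (filterByExpr with a minimum count of 10, TMM, quasi-likelihood test, 12 residual degrees of freedom), with Benjamini-Hochberg adjustment over 14848 genes and a threshold of 0.05. CPM used TMM-scaled library sizes, except that summed marker levels used total counts, and log2 CPM a prior count of 2. Standard errors came from the fold change and the F statistic. The corrected fit used, as offsets, a robust spline trend (5 degrees of freedom, MASS 7.3.60.0.1) of each library's deviations on GC content and log length. The cultures of all 4 groups were fitted together, apart from the tumors. The corrected fit, DESeq2 1.42.0 and its size factors, other filters and gene sets, the replicate number as a block and leaving out single tumors were alternatives. The procedure was tested on counts simulated with known changes. Without a GC and length trend, both fits called 0.112% of the unchanged genes. With the trend fitted to these tumors added, the uncorrected fit called 43.8% of them and the corrected fit 0.118%. The added trend was of the form that the correction removes, so the simulation cannot decide how the correction does with others. Pairs of replicates differed by more than counting noise (chi-square per degree of freedom 4.30 to 21.4).

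The comparison and the gene lists were chosen with earlier results of these data known. Genes named were the 10 largest rises and 10 largest falls among protein-coding genes called in both fits with the same sign, with groups that did not overlap, mean expression of 2 log2 CPM or more and no overlapping gene on their strand, a choice of up to 3 list members per direction under the same conditions except the last, and a fixed set around glutamine and CDK4/6, of which a few are not reported here. HSPA5, TICAM2 and the genes called in the interaction were named after their values were seen, and so chosen were the leave-one-out runs of the corrected fit.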

Additional observations from a re-analysis of the deposited data

Results flagged for a closer look

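For each of 89 named genes and 5 library measures, a tumor was sought whose gap to its nearest neighbour in its group of 4 or 5 was large against the whole range of the group. Chance alone does this in about 1 in 20 groups, and 188 groups of values were looked at, with 29 such tumors found. Palbociclib tumor 2 accounted for 19 of them, 15 low and 4 high, and the values were the following. Its GC slope was 0.0929, with the next tumor at 0.310, its share of mitochondrially encoded counts 11.35%, with the next at 7.89%, and the share of its 100 most abundant genes 29.34%, with the next at 25.9%. In glycolysis and the pentose phosphate pathway it had 567.5 CPM of ALDOA, 39.57 of PFKL, 51.26 of SLC16A3 and 173.5 of TKT, all low. In the mitochondrion it had 69.14 CPM of OGDH, low, and 2544 of MT-ND6, high. In lipid synthesis and DNA replication it had 91.22 CPM of FASN and 35.36 of MCM5, both low. Among secreted and epithelial genes it had 29.18 CPM of IGFBP2, 358.6 of KRT19, 1078 of KRT8 and 136.2 of JUP, all low, and 467.2 of EPCAM, high. It also had 91.49 CPM of PRMT1, 4.34 of CBLC and 5.78 of NAT14, all low. In each of these it lay on the side of the Combination tumors, and what set it apart was not tested.

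Palbociclib tumor 4 had a high length slope, 0.0376. Combination tumor 4 was low in GOT1 (69.18 CPM) and FTH1 (1929 CPM) and high in FASN (51.18 CPM) and KRTAP2-3 (22.46 CPM). Combination tumor 1 was low in IDH3G (9.05 CPM) and CYC1 (21.44 CPM) and high in SBNO2 (3.49 CPM), and Combination tumor 2 was high in CYCS (405.9 CPM) and TK1 (23.44 CPM).

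The difference made by Telaglenastat was itself different with and without Palbociclib, by the interaction term of the fit, in 10 genes. It was higher with Palbociclib in ISY1-RAB43 (6.31 on the log2 scale, a fitted size that depends on values near 0), SPARC (1.46), COL1A2 (1.45), COL1A1 (1.29), MMP7 (1.16), KLK10 (1.11) and MSMO1 (0.66), and lower in PALLD (-0.80), HTR7 (-0.66) and NR2F1 (-0.62).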

How the results depend on the processing

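Correcting for GC content and transcript length, alone or with the block below, moved the counts most, alone from 4076 lower and 2988 higher to 1216 and 1083. DESeq2's size factors gave 3855 and 3680, an upward shift of the median log2 fold change from 0.016 to 0.062, and the DESeq2 test 3863 and 3643. The share of higher calls among all calls was thus larger with either than with TMM, and no other filter, set of samples or gene type moved either count by over 1.5 times. Leaving out each tumor gave 3705 to 4210 lower and 2535 to 3365 higher, and in the corrected fit 964 to 1306 and 877 to 1191. The GC slope difference ranged from -0.543 to -0.471, and the difference in mitochondrial share from 3.05 to 4.20 points, with p up to 0.0714. The interaction gave 0 genes lower after correction, and 0 to 11 lower and 5 to 8 higher when 1 of the 9 tumors was left out, with 11 lower without Palbociclib tumor 5, 1 without Palbociclib tumor 2 and 0 without Palbociclib tumor 3 or Combination tumor 1, 3 or 4. In cultures the corrected count was 1 lower. The cause of these changes was not tested.

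The replicate numbers in the labels did not pair the tumors. Deviations from the group means of same-numbered tumors correlated at 0.074, 0.012, 0.021 and 0.083, and not every tumor correlated best with its own number. With the number as a block, 3797 genes were lower and 2562 higher, with the correction as well 981 and 863, and the interaction had 1 gene lower, with the correction as well 1.

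Signs turned after correction, with and without the block, in GOT1 (0.0786 with the block and 0.155 without), GPT2 (0.398 and 0.376), SLC7A11 (-0.155 and -0.150), CDKN1A (0.0962 and 0.111) and MYC (0.198 and 0.209). The corrected value of RB1 ranged from -0.0588 without Combination tumor 1 to 0.0842, with -0.0154 without Palbociclib tumor 4, and that of LMNB1 without correction from -0.00685 without Combination tumor 1 to 0.211. The strict filter of 10 counts in every tumor left 83 of the 89 genes with a value. Depth limits genes at a few CPM, such as CBLC and CAPN12.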
